A study of Homo sapiens with 3 samples.

Results

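The genes described here are 35 reported transcriptional targets of p53, read without and under FK866 in MM1S, an established cell line from a human multiple myeloma. FK866 inhibits NAMPT, the enzyme that recycles nicotinamide into NAD. MM1S cells were grown in RPMI-1640 medium with serum, antibiotics and glutamine, and 3 samples gave 1 Affymetrix array each: untreated cells (0 h), cells held in 10 nM FK866 for 6 h, and cells held in it for 24 h. Untreated cells collected beside either treated time were not analysed here, so the compound cannot be told apart from time in culture. With 1 array per group no test was possible, no difference has a replicate check, and each value below describes these 3 arrays only.

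A member was measured when a probe set carrying its symbol and no other had a mean signal of 20 or more over the arrays. This held for 28 of the 35 members, through 60 probe sets, out of 11330 genes and 21495 probe sets that met the same rule. A gene has the value of its brightest such probe set. Signals are in arbitrary units, and because probe sets bind with different strength they show no order between genes. Differences are on the log2 scale after signals under 16 were raised to 16, and folds (2 raised to the size of the difference) are given from it.

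p53 is a transcription factor that is kept scarce by the ubiquitin ligase MDM2 and accumulates after DNA damage, nucleolar stress and other insults. It binds DNA as a tetramer at elements built from a pair of decamers, and induces genes that stop the cell cycle, repair DNA, limit oxidation and trigger apoptosis. It also induces MDM2, PPM1D and other genes that switch it off again. SIRT1 and PARP1, which use NAD, are known to modify p53.

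The arrays carried the label's cell type: 10 of 10 plasma cell markers were measured, with mean signals from 537 to 12232, and their summed signal was 50437 without FK866, 48025 at 6 h and 48566 at 24 h. Of B cell markers 0 of 4 were measured (3 with a probe set of their own, highest mean signal 11.3), and of T and NK cell markers 0 of 5 (highest 12.6). Of myeloid markers 2 of 5 were measured (4 with a probe set of their own, summed signal 64.4, 46.2 and 44.4). Of stroma markers 2 of 6 were, COL1A1 and VIM (8574, 7079 and 6200). VIM, with a mean signal of 7226, gave most of that sum. NAMPT, the target of FK866, read 5473, 1248 and 1422.5. The median of all genes differed from untreated cells by -0.10 at 6 h and -0.13 at 24 h, a shift of level against which the members are to be read. The excess of 3' over 5' signal on the log2 scale, which grows as RNA degrades, lay between 0.20 and 0.32 for GAPDH and between 2.25 and 2.55 for ACTB over the 3 arrays, and its part in the results was not tested.

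The promoters of 7 members hold the DNA word that p53 reads, and these are printed because they mark members with a p53 decamer close to the gene start. RefSeq promoter windows (GRCh38.p14, 250 bases before to 50 after the start) matched 28 of the 35 symbols, with 45 windows in all. The p53 response-element decamer was searched on both strands, with its usual choice of purines and pyrimidines and with no mismatch. It occurred in 7 of the 45 windows (15.6%) and in 6.63% of all 35116 windows. Counted by gene, it occurred for 7 of 28 members (25%) and for 8.06% of all 27305 genes. Capitals mark the decamer, and each line runs 5′ to 3′ on the gene's own strand.
AEN: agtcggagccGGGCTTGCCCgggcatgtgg
DDB2: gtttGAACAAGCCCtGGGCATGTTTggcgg
FAS: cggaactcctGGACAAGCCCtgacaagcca
FDXR: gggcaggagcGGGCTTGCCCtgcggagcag
PLK2: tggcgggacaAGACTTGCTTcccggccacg
RPS27L: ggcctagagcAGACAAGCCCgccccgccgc
SESN1: attgtcgtctGGACAAGTCTccacaagtca

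DDB2 was the 1 member with a full element, a pair of decamers, here with 1 base between them. Of all 35116 windows, 10 held a pair with at most 13 bases between. The DDB2 stretch lies at chr11:47214975-47215004 on the plus strand, and its first decamer begins at base 6 of the transcribed sequence. The decamer of AEN (chr15:88621296-88621325, plus strand) begins 34 bases before the gene start, and that of FAS (chr10:88991299-88991328, plus strand) 122 bases before it. On the minus strand, the decamer begins 11 bases before the start in FDXR (chr17:74872986-74873015), 49 in SESN1 (chr6:109009018-109009047), 59 in RPS27L (chr15:63157517-63157546) and 132 in PLK2 (chr5:58460199-58460228). A match is a description of letters and not a measured binding site, and no match says only that these letters are not in the window. Of these 7 genes, 6 were measured on the arrays, and FDXR was not.

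Most members lay close to their untreated signal at 6 h. GADD45A was the 1 member of 28 to lie at least 2-fold below untreated cells, where 3.12% of all genes did. None of the 28 lay 2-fold above, where 1.46% of all genes did. After quantile normalization the split of all genes was 1.74% below and 2.36% above, and the members past 2-fold were 0 and 0. The members' median difference was -0.07 beside -0.10 for all genes, and 15 of 28 lay above the all-gene median. The middle 50% of members ran from -0.30 to 0.10, and that of all genes from -0.32 to 0.12. At a size of 1.5-fold, 3 members (GADD45A, PLK2 and TNFRSF10B, 10.7%) were lower and 0 higher, where 10.4% of all genes were lower and 5.38% higher.

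At 24 h, none of the 28 members reached 2-fold in either direction, where 1.11% of all genes did so above untreated cells and 4.02% below. Quantile normalization turned that split of all genes to 2.37% above and 2.29% below, with AEN then above. The median difference was -0.10 beside -0.13 for all genes, and 16 of 28 lay above the all-gene median. At 1.5-fold, AEN, SESN1 and ZMAT3 (10.7%) were higher and GADD45A, PLK2, PIDD1 and FBXW7 (14.3%) lower, where 4.52% and 13.2% of all genes were. Between the treated arrays, none of the 28 members reached 2-fold, where 1.05% of all genes did upward and 1.84% downward, and the median was -0.0026 beside -0.037 for all genes. AEN and TNFRSF10C were at least 1.5-fold higher at 24 h than at 6 h and 0 members lower, where 4.69% and 7.55% of all genes were. TNFRSF10C (22.6, 10.0 and 29.8) had a mean signal of 20.8, at the edge of the filter, which its low 6 h reading alone would not have passed. With a floor of 64 it showed no difference, so its call carries little weight. Differences near 0 depend on the scaling, and under quantile normalization or median centring some signs turned from lower to higher. At 6 h this held for 6 members (APAF1, BAX, MDM2, RPS27L, TP53I3 and TRIAP1). At 24 h it held for 8 (CDKN1A, FAS, PHLDA3, PMAIP1, POLH, RPS27L, RRM2B and XPC), and between the treated arrays for PHLDA3, RPS27L and TIGAR. The all-gene median turned likewise, from -0.10 to 0.04 and 0.05 at 6 h and from -0.13 to 0.05 and 0.07 at 24 h. The share of all genes whose sign turned was not computed, so these counts are not read as a trait of the members. The comparisons of both treated arrays use the same untreated array, so their values stand side by side and are not independent. The untreated array was the highest of the 3 for 12 of 28 members, the 6 h array for 7 and the 24 h array for 9, and over all genes these shares were 51.1%, 26.2% and 22.7%.

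**Figure D1:**
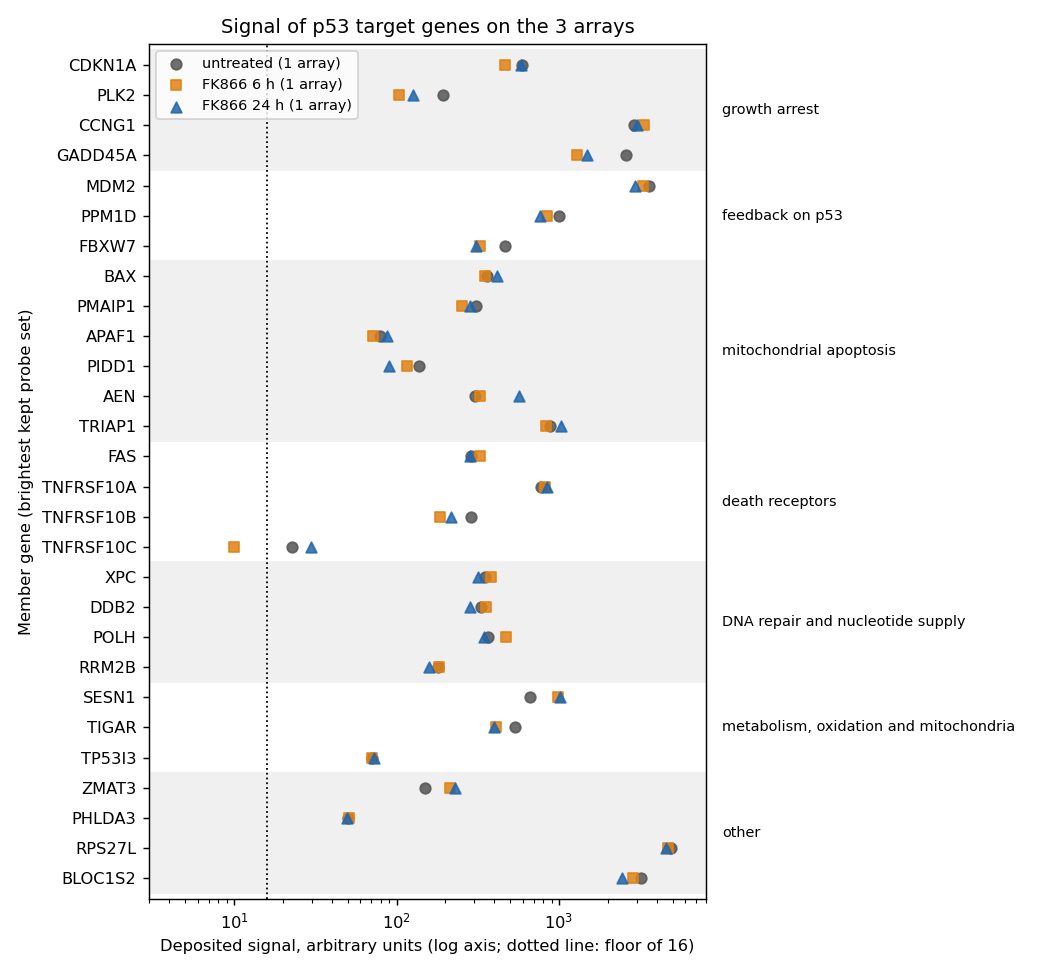
Deposited signal (arbitrary units, log axis) of the 28 measured members on the untreated, 6 h and 24 h arrays, 1 point per array, grouped by role; the dotted line is the floor of 16. The 3 points of most genes lie close together, while GADD45A (2596.5, 1288.5 and 1482) and PLK2 have the untreated point to the right, and AEN (305, 328 and 564) has the 24 h point to the right.

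The arrest genes held GADD45A and PLK2, the lowest members at 6 h. CDKN1A encodes p21, the inhibitor of cyclin-dependent kinases through which p53 halts the cycle. Its signal was 591 without FK866, 464 at 6 h and 587 at 24 h, read from 1 probe set. The 6 h array was thus the low one, 1.27-fold below untreated cells, and the 24 h value differed from them by -0.01, a sign that turned with the scaling. The share of all genes that were as low or lower at 6 h was 22.3%.

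GADD45A is a stress protein that binds PCNA and p21 and activates stress kinase signalling. Its signal was 2596.5 without FK866, 1288.5 at 6 h and 1482 at 24 h, so both treated arrays were low. The gap to untreated cells was 2.02-fold at 6 h and 1.75-fold at 24 h. Of all genes, 2.99% were as low at 6 h and 6.85% at 24 h. The 6 h value sits at the edge of the 2-fold size: the difference of -1.01 became -0.87 after quantile normalization and -0.86 after centring each array on its median, both inside 2-fold. Among 7710 genes with a mean signal of 100 or more, as GADD45A has, 1.35% were at least 2-fold lower at 6 h.

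PLK2, a polo-like kinase of the G1 phase and of checkpoint control, had signals of 194, 103 and 127 in the untreated, 6 h and 24 h arrays. This is a gap of 1.88-fold at 6 h and 1.53-fold at 24 h, again with both treated arrays low. CCNG1 encodes cyclin G1, which guides a phosphatase to MDM2. Its signals were 2881, 3354 and 3029.6, differences of 0.22 at 6 h and 0.07 at 24 h, so here the untreated array was the lowest. The arrest genes therefore did not share a direction at 6 h: 3 of the 4 measured lay below the all-gene median and CCNG1 above it.

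Of the 4 genes that restrain p53, MDM2, PPM1D and FBXW7 lay below their untreated signal at both times and CCNG1, described above, lay above it (0.22 and 0.07). The same 3 lay below the all-gene medians of -0.10 and -0.13, MDM2 at 6 h (-0.12) only just. MDM2 read 3565 without FK866, 3287 at 6 h and 2955 at 24 h, which is 1.08-fold lower (a direction that turned with the scaling) and then 1.21-fold lower. Its 8 kept probe sets ran from -0.64 to 0.21 at 6 h and from -0.34 to 0.39 at 24 h, so the direction was not shared among them. PPM1D encodes the phosphatase WIP1, which removes activating phosphates from p53 and its kinases. Its signals were 1003, 842 and 769, with both kept probe sets lower at each time and none beyond -0.53.

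FBXW7 is the substrate receptor of a ubiquitin ligase that degrades cyclin E, MYC and NOTCH. Its signals were 465, 328 and 308, with gaps of 1.42-fold at 6 h and 1.51-fold at 24 h. All 4 of its kept probe sets were lower in both treated arrays, from -0.69 to -0.26 at 6 h and from -0.71 to -0.20 at 24 h. The second of them read 369, 235 and 226, so the low readings were not those of a single probe set.

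Among the genes that the figures group as mitochondrial apoptosis, AEN stood highest at 24 h. The label is loose, since the group also holds apoptosis genes of other kinds, AEN among them. AEN encodes a nuclease that digests DNA and RNA during apoptosis, and its promoter window holds the decamer printed above. Its signal was 305 without FK866, 328 at 6 h and 564 at 24 h, from 1 probe set. Untreated and 6 h values were close (0.10), and the 24 h array was the high one, 1.85-fold above untreated cells and 1.72-fold above 6 h. Of all genes, 1.58% were as high or higher at 24 h. The difference of 0.89 was 1.02 after quantile normalization and 1.08 after centring on array medians, so AEN counted as 2-fold higher there.

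BAX encodes the protein that opens the outer mitochondrial membrane. Its brighter probe set read 362, 349 and 415 and its second 295, 304 and 421, so both were highest at 24 h, by 0.19 and 0.51 against untreated cells. TRIAP1, a small protein that restrains caspase activation, read 876, 833 and 1035, also highest at 24 h, with a difference of 0.24. APAF1 builds the apoptosome that activates caspase-9. Its signals were 79.2, 72.1 and 87.7, but its dimmer probe set (26.7, 28.0 and 20.8) differed by -0.36 at 24 h where the brighter differed by 0.15.

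PMAIP1 encodes NOXA, a BH3-only protein that neutralises MCL1. Its signals were 309, 253 and 283, and its second probe set read 128, 116 and 117, so both kept probe sets differed by -0.29 to -0.13, at 24 h with a sign that turned with the scaling. PIDD1 encodes the scaffold of the PIDDosome, which activates caspase-2. Its brighter probe set read 138, 116 and 89.8, 1.53-fold lower at 24 h, whereas its second (71.7, 59.4 and 64.5) differed by -0.15. In this group 5 of 6 measured members lay above the all-gene median at 24 h, PIDD1 being the exception and PMAIP1 (-0.13) level with it, and 3 of 6 did at 6 h. The group is mixed and includes TRIAP1, which restrains caspases, so these counts give no direction for apoptosis. BBC3, which encodes PUMA, had no probe set of its own. A probe set that the annotation assigns to BBC3 and a pair of microRNA genes together read 52.3, 43.4 and 47.4, and it was not counted.

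**Figure D2:**
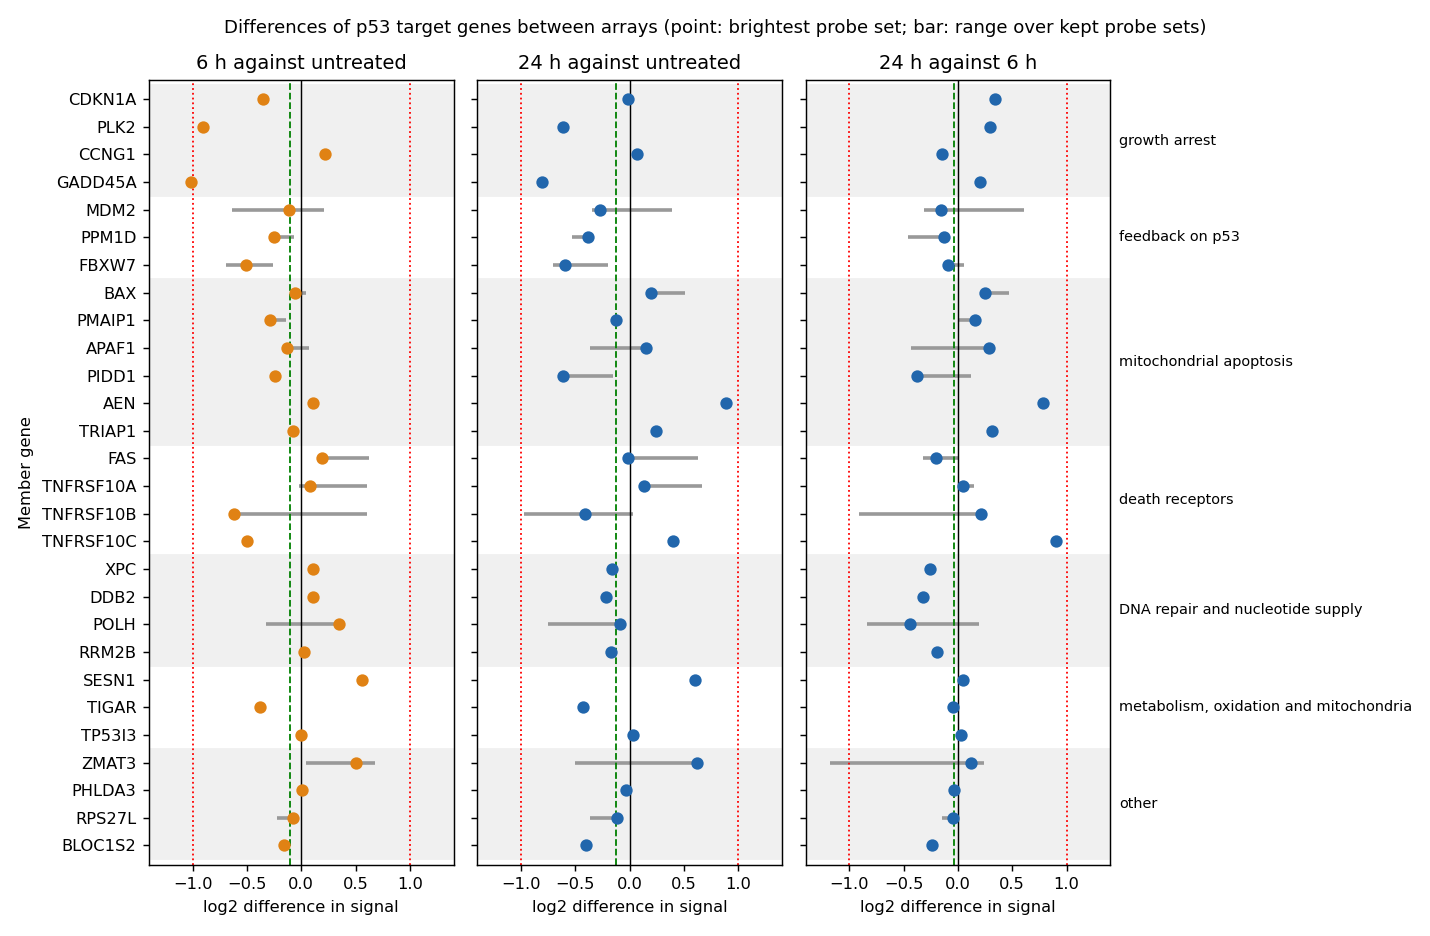
The log2 difference in signal of each member in the 3 comparisons; points are the brightest probe set, grey bars the range over kept probe sets, green dashed lines the median of all genes, and red dotted lines mark 2-fold. GADD45A at 6 h (-1.01) is the 1 point at or beyond a red line, and AEN at 24 h (0.89) is the highest point against untreated cells.

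The death receptors gave no common picture. FAS, whose promoter window holds a decamer, is the receptor for FAS ligand that assembles a caspase-8 complex. Its signals were 287, 327 and 284, so the 6 h array was slightly high. Of its 5 kept probe sets, the dimmest (12.7, 24.7 and 24.8) passed the filter only through the treated arrays. Its differences of 0.63 at each time are therefore no support for a direction. The others were all higher at 6 h, between 0.19 and 0.43, and at 24 h they ran from -0.02 to 0.31.

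TNFRSF10A and TNFRSF10B encode the TRAIL receptors DR4 and DR5. TNFRSF10A read 769.7, 814 and 843, and its 3 kept probe sets ran from -0.02 to 0.60 at 6 h and from 0.12 to 0.67 at 24 h, so none was clearly lower. TNFRSF10B read 286, 186 and 215, with the treated arrays 1.53-fold and 1.33-fold below untreated cells. Its other kept probe sets read 37.4, 56.7 and 38.3, and 31.4, 30.1 and 8.8. The 3 probe sets of TNFRSF10B ran from -0.62 to 0.60 at 6 h, and by their mean the gene differed by -0.03. TNFRSF10C, a decoy receptor without a death domain, was read at the detection edge with signals of 22.6, 10.0 and 29.8. Its 6 h signal lay under the floor, so the 24 h array was at least 1.86-fold higher than the 6 h array, and with a floor of 64 the gene showed no difference.

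The genes of DNA repair and nucleotide supply lay in a narrow band by their brightest probe sets. XPC, which detects helix distortion for nucleotide excision repair, read 353, 379 and 316. DDB2, the ultraviolet damage sensor whose full p53 element is printed above, read 330.1, 356 and 285. RRM2B, the p53-inducible subunit of ribonucleotide reductase, read 179.6, 182 and 159.5. In each of these the 6 h array was the highest and the 24 h array the lowest on the deposited scale. The differences between 24 h and 6 h were -0.26, -0.32 and -0.19. After centring on array medians the untreated array was the lowest for XPC and RRM2B, whose 24 h values differed from it by 0.039 and 0.025. After quantile normalization these differences were -0.03 and -0.01.

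POLH encodes the polymerase that copies past ultraviolet lesions. Its signals were 368, 469 and 346.5, the same order as in the other repair genes, and the 24 h array was 1.35-fold below the 6 h array. Its 5 kept probe sets ran from -0.32 to 0.36 at 6 h and from -0.75 to -0.08 at 24 h, so at 24 h all lay below untreated cells on the deposited scale, the brightest by an amount that turned with the scaling. The 6 h array enters both the comparison with untreated cells and that between the treated arrays, with opposite sign, so a high reading on it moves the values in opposite directions. Apart from POLH between the treated arrays (-0.44), the differences of these 4 genes were smaller than the scatter among a gene's own probe sets, whose pooled SD over all genes was 0.37 at 6 h, 0.37 at 24 h and 0.34 between the treated arrays.

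Of the metabolic targets, SESN1 was high in both treated arrays. SESN1 encodes sestrin 1, which restrains mTORC1 and supports antioxidant defence, and its promoter window holds a decamer. Its signal was 663 without FK866, 979 at 6 h and 1009 at 24 h. The treated arrays were close to each other (0.04) and 1.48-fold and 1.52-fold above untreated cells, from 1 probe set. A share of 5.70% of all genes was as high at 6 h and 4.24% at 24 h. TIGAR, a phosphatase that lowers fructose-2,6-bisphosphate and so slows glycolysis, lay the other way with signals of 534, 409.8 and 396. The treated arrays lay 1.30-fold and 1.35-fold below untreated cells. TP53I3, a quinone oxidoreductase, read 70.9, 70.7 and 72.3 and differed by at most 0.03 in any comparison.

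ZMAT3 encodes an RNA-binding zinc finger protein that acts in growth suppression and splicing. Its signals were 149.8, 212 and 230.5, 1.41-fold higher at 6 h and 1.54-fold higher at 24 h by the brightest probe set. Its 4 kept probe sets were all higher at 6 h, from 0.04 to 0.68, but ran from -0.50 to 0.62 at 24 h. By their mean ZMAT3 differed by 0.14 at 24 h. One of the dimmer probe sets read 32.4, 51.9 and 22.9 and was the 1 kept probe set of any member that differed 2-fold between the treated arrays (-1.18), beside 3.07% of all kept probe sets in either direction.

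PHLDA3, which blocks membrane recruitment of AKT, read 50.5, 50.7 and 49.4. RPS27L, a ribosomal protein paralog with a decamer in its window, read 4906, 4660.4 and 4523, with its 3 probe sets between -0.22 and -0.07 at 6 h and between -0.37 and -0.12 at 24 h. BLOC1S2, a subunit of a complex that positions lysosomes, read 3209.6, 2869.7 and 2436, differences of -0.16 and -0.40. None of the kept probe sets of these 3 genes differed from untreated cells by more than 0.40.

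**Figure D3:**
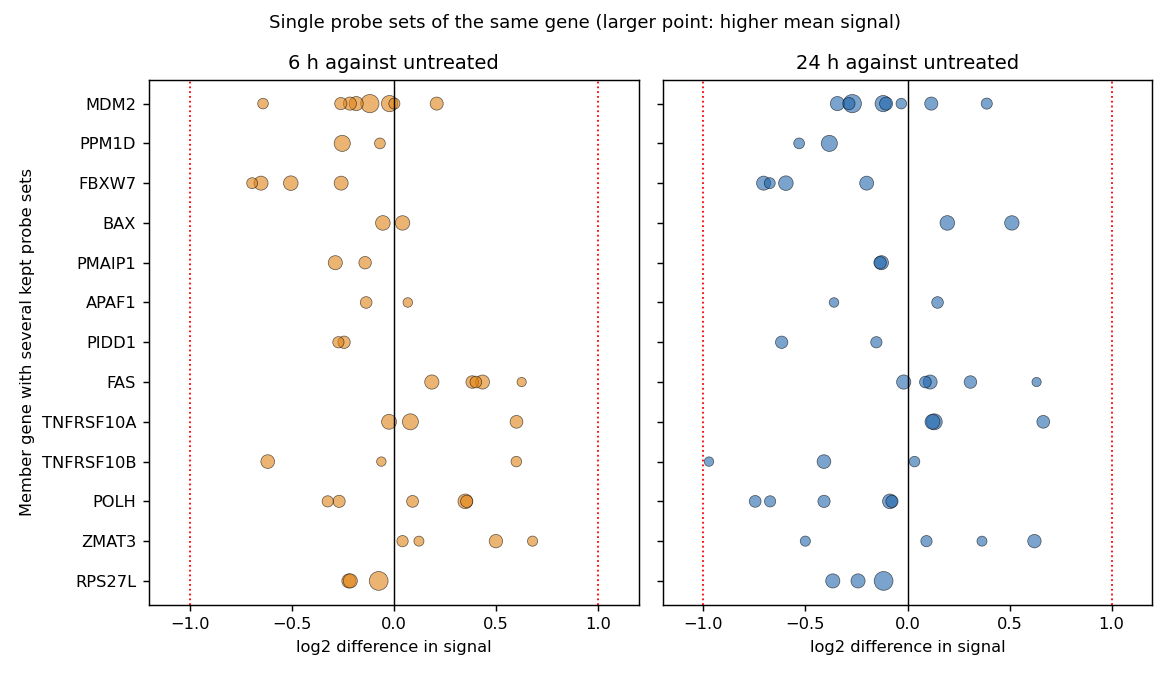
Log2 differences from untreated cells for every kept probe set of the 13 members with more than 1, at 6 h and 24 h; each point is a probe set, larger where its mean signal is higher, and red dotted lines mark 2-fold. The 4 points of FBXW7 lie left of zero in both panels, the 5 of FAS right of zero at 6 h, and those of TNFRSF10B and ZMAT3 (24 h) on both sides. The smallest point of FAS is a probe set that passed the filter only through the treated arrays.

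Agreement between probe sets is the 1 check on error that these arrays allow, and it covers probe error and transcript forms but not variation between cultures. It was available for 13 of the 28 members, since 15 had 1 kept probe set, CDKN1A, GADD45A, AEN, SESN1 and PLK2 among them. The pooled SD between probe sets of a gene was 0.50 at each treated time for genes whose brightest probe set lay between 20 and 100, and 0.31 for those of 1000 or more. At signals of 100 to 1000, where AEN, SESN1 and PLK2 lie, it was 0.37 at each time. At 6 h, 7 of 28 members differed from untreated cells by more than the SD at their level (GADD45A, PLK2, TNFRSF10B, FBXW7, TIGAR, SESN1 and ZMAT3), where 28.9% of all genes did. At 24 h, 11 of 28 did (those 7 with AEN, BLOC1S2, PIDD1 and PPM1D), where 31.7% of all genes did. A difference beyond this SD was thus common. Both lists are on the deposited scale and depend on it. After centring on array medians, TIGAR (-0.23) and FBXW7 (-0.36) lay inside the SD at 6 h, and POLH (0.50) and CCNG1 (0.37) beyond it. At 24 h TNFRSF10B (-0.21), TIGAR (-0.23), PPM1D (-0.19) and BLOC1S2 (-0.20) then lay inside. BAX (0.39), TRIAP1 (0.44) and TNFRSF10C (0.60) then lay beyond. By the brightest probe sets and on the deposited scale, the differences of CDKN1A (-0.35 and -0.01), MDM2 (-0.12 and -0.27) and BAX (-0.05 and 0.19) were smaller than this SD. The second probe set of BAX (0.51 at 24 h) was beyond it. So were dimmer probe sets of MDM2 (-0.64 at 6 h and 0.39 at 24 h). The brightest probe set of 12 members, CDKN1A, AEN, BAX and SESN1 included, carries a suffix saying that it may match several transcripts or genes.

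**Figure D4:**
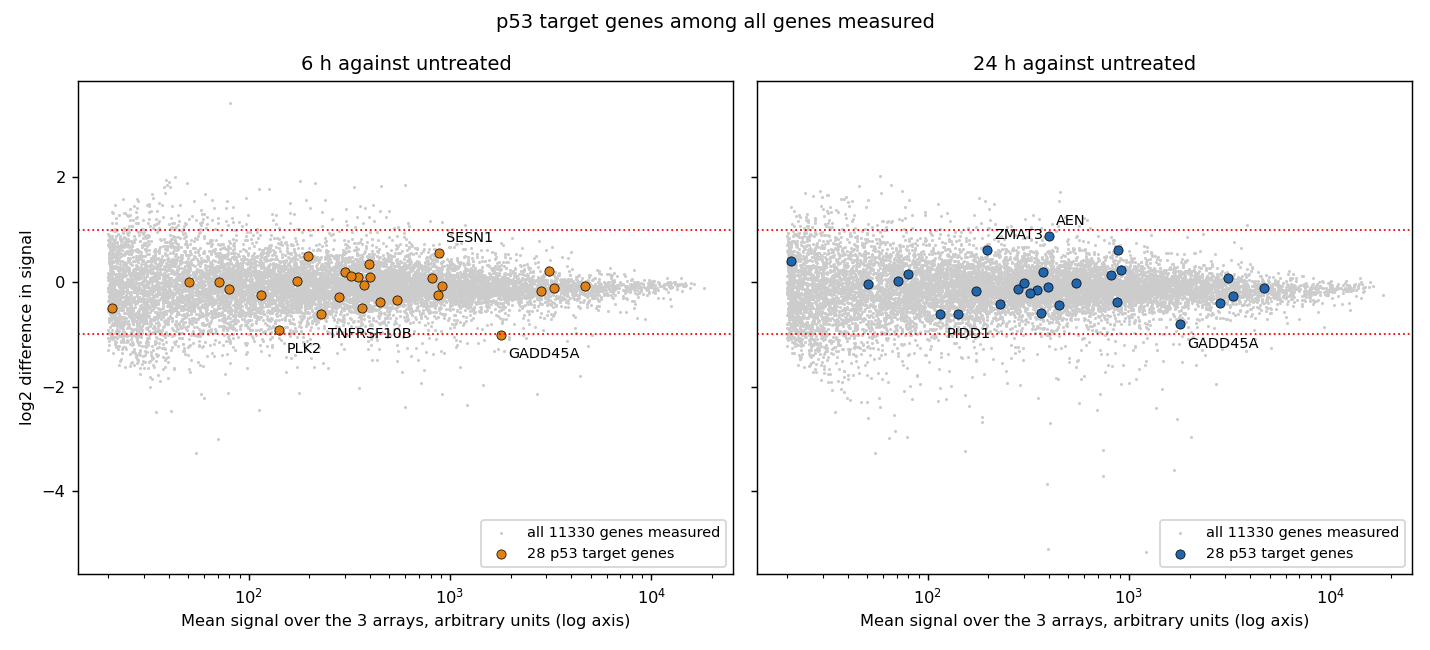
Log2 difference from untreated cells against the mean signal of the 3 arrays (log axis) at 6 h and 24 h, for all 11330 genes measured (grey) and the 28 p53 target genes (coloured); red dotted lines mark 2-fold. The members lie within the grey cloud, and the 4 farthest from 0 are named in each panel, among them GADD45A and PLK2 at 6 h and AEN at 24 h.

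Members with and without a decamer in the promoter window covered overlapping ranges. The 6 measured members with one (AEN, DDB2, FAS, PLK2, RPS27L and SESN1) ran from -0.91 to 0.56 at 6 h with a median of 0.11, and from -0.61 to 0.89 at 24 h with a median of -0.07. The 16 measured members whose windows lacked it ran from -0.50 to 0.50 at 6 h with a median of -0.13, and from -0.62 to 0.62 at 24 h with a median of -0.11. The other 6 measured members had no window (TNFRSF10A, TNFRSF10B, TNFRSF10C, GADD45A, RRM2B and PHLDA3). They ran from -1.01 to 0.08 at 6 h with a median of -0.25, and from -0.81 to 0.40 at 24 h with a median of -0.10, and hold the lowest member at both times, GADD45A. The members with a decamer thus include the highest value of the list against untreated cells at each time (SESN1 at 6 h, AEN at 24 h) and one of the lowest (PLK2).

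Of the other 7 members, EDA2R, PLK3, SPATA18 and TRIM22 had probe sets under the filter, and BBC3, BTG2 and FDXR had none with their symbol alone. EDA2R, a receptor of the TNF receptor family, was just outside with a mean signal of 19.7 (26.7, 23.8 and 8.6), and TNFRSF10C just inside with 20.8. The brightest probe set of PLK3, a stress-responsive polo-like kinase, read 22.8, 19.0 and 10.4. SPATA18, which acts in mitochondrial quality control, read at most 6.4 on any array, and TRIM22, an interferon- and p53-inducible antiviral protein, at most 13.7. These readings give no order between arrays.

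By their brightest probe sets, the regulators of p53 also lay within 2-fold. Of 27 listed, 23 were measured, with none past 2-fold at either time or between the treated arrays, where 4.58% of all genes were at 6 h, 5.13% at 24 h and 2.89% between the treated arrays. Their medians were -0.14 at 6 h and -0.08 at 24 h, beside -0.10 and -0.13 for all genes. Dimmer kept probe sets of RCHY1 (-1.63) and SETD7 (1.18) were past 2-fold at 24 h, where the brightest of each differed by -0.20 and 0.01. MDM4, the partner of MDM2 that masks the activation domain of p53, read 600.5, 525 and 569. The kinase ATM, which phosphorylates p53 after double-strand breaks, read 177, 147 and 195. CHEK1 read 870.5, 773 and 708 and CHEK2, likewise a checkpoint kinase, 214, 252 and 290.2, so the former was lowest and the latter highest at 24 h. SIRT1, the NAD-dependent deacetylase of p53, read 619, 468.5 and 525, and PARP1, which uses NAD to build poly(ADP-ribose), 4779.7, 4382 and 5267. The acetyltransferase EP300, a coactivator of p53, was the lowest of them at 6 h with 542, 379.5 and 334. The highest at 6 h was TP53BP1, a chromatin reader at DNA breaks, with 115.1, 180.4 and 128.1 (1.57-fold higher at 6 h), though its other kept probe set differed by -0.35. The lowest at 24 h was TP73, a paralog of p53, with 46.9, 39.3 and 26.8 (-0.81). These 3, RCHY1 and SETD7 were chosen after their values were seen.

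Further reported p53 targets outside the 35 lay lower. Of 20 listed, 15 were measured, with medians of -0.30 at 6 h and -0.23 at 24 h beside -0.10 and -0.13 for all genes. At 6 h, on the deposited scale, NINJ1 and ALDH4A1 (2 of 15) were past 2-fold on the lower side, where 3.12% of all genes were, and none on the higher. Dimmer kept probe sets of SFN (-1.02) and PRKAB1 (-1.05) were also past 2-fold at 6 h, where the brightest differed by -0.06 and -0.34. At 24 h ALDH4A1 alone (1 of 15) was, where 4.02% of all genes were. NINJ1, which ruptures the plasma membrane in dying cells, read 279, 126 and 152, 2.21-fold and 1.83-fold below untreated cells in the treated arrays. Its 6 h difference of -1.15 lies near the 2-fold size, and the genes of this list were not recomputed under other scalings. ALDH4A1, a mitochondrial enzyme of proline breakdown, read 74.7, 23.7 and 28.9, 3.15-fold and 2.58-fold below them, while its other probe set differed by -0.32 and -0.87. STEAP3, a metalloreductase, read 103.6, 71.7 and 152 and was 2.12-fold higher at 24 h than at 6 h, while its other probe set differed by 0.05. It was the 1 of 15 so called, where 1.05% of all genes were. A dimmer probe set of CMBL differed by 1.10 between the treated arrays, where its brightest differed by 0.17. SFN, PRKAB1 and CMBL were chosen after their values were seen. SESN2 (75.1, 53.9 and 45.0) and PCNA (5875, 4528 and 4192) were lowest at 24 h, in contrast to SESN1. GDF15, a secreted p53-inducible cytokine, had 3 probe sets, all with a mean signal under 20.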

How the data were processed

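The authors deposited 1 linear signal intensity per probe set and array, from 3 Affymetrix arrays hybridised, per the labels' protocols, with biotinylated cRNA from 1 µg of total RNA. Probe summary, background correction and scaling between arrays are not given in the sources used here, and detection calls were not used. The deposited intensity had a median of 20.4, 17.4 and 17.2 in the untreated, 6 h and 24 h arrays. Precision is limited by how few arrays there are.

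Of 54675 probe sets, GEO's platform annotation of 2016 gave 1 symbol for 41097, several for 1801 and none for 11777; 62 are controls and were left out. Probe sets with 1 symbol and a mean signal of 20 or more were kept, signals under 16 were set to 16, and log2 differences between arrays were computed. Each gene is read from its brightest kept probe set. In place of a test, a fixed size of 2-fold was used and set beside the share of all genes past it. All members are named, and of the other pathway genes those past 2-fold and a fixed few. EP300 and the others so marked above were chosen after their values were seen. Members and lists were chosen with earlier results of these data known. Alternatives were scaling, floor, filter, probe set summary, probe sets that may match several genes, and size. The computation was tested on simulated data. Python 3.11.15, numpy 2.4.6, pandas 2.3.3 and matplotlib 3.10.9 were used.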

Additional observations from a re-analysis of the deposited data

Results flagged for a closer look

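In 11 of the 28 members the differences from untreated cells had opposite signs at 6 h and 24 h on the deposited scale, beside 26.8% of all genes. After quantile normalization 6 members did (29.5% of all genes), of which RRM2B, XPC, DDB2 and TNFRSF10C were among the 11. After centring on array medians 5 did (29.2%), of which DDB2 and TNFRSF10C were, so most of these sign changes depend on the scaling. These differences were not tested, both times share the untreated array, and 10 of the 11 changed between 6 h and 24 h by no more than 0.44 on the log2 scale. Higher at 24 h than at 6 h were TNFRSF10C (by at least 0.90, its 6 h signal lying under the floor), TRIAP1 (0.31), APAF1 (0.28), BAX (0.25) and TP53I3 (0.032). Lower were POLH (-0.44), DDB2 (-0.32), XPC (-0.26), FAS (-0.20), RRM2B (-0.19) and PHLDA3 (-0.037).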

How the results depend on the processing

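No paired analysis was possible because each group has 1 array. The count of members at least 2-fold lower at 6 h was 1 (GADD45A), where 3.12% of all genes were. It was 0 after quantile normalization, after centring on array medians and with log2(signal + 32), where 1.74%, 1.94% and 0.82% of all genes were. The count at least 2-fold higher at 24 h was 0 (1.11% of all genes). It was 1 (AEN) after quantile normalization (2.37%) and after centring (2.16%). The count higher at 24 h than at 6 h was 0 (1.05% of all genes), and 1 (TNFRSF10C) after quantile normalization (1.34%). At 1.5-fold, 3 members were lower at 6 h, 3 higher and 4 lower at 24 h, and 2 higher between the treated arrays. Of all genes 10.4%, 4.52%, 13.2% and 4.69% were, in that order. The median at 6 h, -0.07, was 0.049 after quantile normalization, 0.074 after centring and -0.16 without probe sets that may match several genes. At 24 h the median of -0.10 was 0.050, 0.095 and -0.34 in that order, and all genes then had medians of 0.05, 0.07 and -0.14. Between the treated arrays it was -0.091 without those probe sets, which left 19 members measured. Of 633 single gene differences recomputed, 10 moved by more than the pooled probe set SD. Only GADD45A at 6 h was past 2-fold as reported, so only its call could reverse, and it stayed below 0 in each setting. Many of the 633 could not move. A changed filter leaves the value of a kept member as it was, and so does the mean over probe sets for members with 1. Members with signals near the floor, TNFRSF10C first, have the least certain values.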
